A study of Mus musculus with 24 samples.

Results

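Peaks of ARID1B, FOXP1, and TCF7L2 were followed across the loci of 10 radial glia genes in mouse cortex. The genes were Pax6, Emx1, Emx2, Sox2, Sox9, Hes1, Hes5, Nes, Vim, and Hopx. A peak was taken as a member where it overlapped the body of 1 of these genes, or the 50 kb on either side, by at least 1 base, and 748 of the 314936 peaks of the 6 lists on the main chromosomes did so. Peaks that reached the 2000 bp before any of the gene's transcription start sites (TSSs) were promoter peaks, other peaks that touched the gene body were genic, and the rest were flanking. The rule itself uses no measured value, but the genes were chosen with earlier results of these data known.

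Radial glia are the neural stem cells of the developing cortex. Their cell bodies lie in the ventricular zone, and they give rise to neurons, directly or through intermediate progenitors, and later to glia. Pax6, Emx1, and Emx2 encode transcription factors that pattern the dorsal telencephalon, Sox2 and Sox9 encode HMG box factors of neural stem cells, and Hes1 and Hes5 encode the repressors through which Notch signaling keeps these cells undifferentiated. Nes and Vim encode intermediate filament proteins of progenitors, and Hopx encodes a small homeodomain protein known from outer radial glia and from astrocyte progenitors.

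All samples were wild-type mouse cortex with no treatment, taken at the embryonic (E) days E15.5 or E18.5. Each transcriptional regulator (TR) had 2 ChIP and 2 input libraries per stage. The labels call the third target TCF4 and the study's antibody list TCF7L2, and the latter name is used. ARID1B belongs to BAF, a complex that remodels chromatin, FOXP1 is a forkhead protein, and TCF7L2 acts in Wnt signaling. The study's methods describe final peaks called on merged replicates. The deposited lists, 1 for each TR and stage, are filed under the first replicate and were taken to be these merged lists, which the files themselves do not state. With 1 list and no spread between replicates in each condition, no test between conditions was possible. Cortex at these stages holds neurons and other cells beside radial glia, and fewer radial glia at E18.5 and weaker binding in each of them cannot be told apart in such tissue.

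The height of a peak is its fold enrichment, the number of ChIP reads at the summit over the background, with 1 added to both. Where the ChIP libraries were larger than the input, the caller first scaled the ChIP reads down, by 0.856 for ARID1B at E15.5, 0.775 for TCF7L2 at E15.5, and 0.561 for FOXP1 at E18.5. Its 95% exact Poisson interval was computed from the number of reads recovered at the summit, and covers counting error only. The lists held from 24870 peaks for FOXP1 at E18.5 to 71408 for ARID1B at E15.5. On this scale the background was 2.81 reads for FOXP1 at E18.5 and 6.13 to 8.63 reads in the other 5 lists. It was a single constant for each list, so that input reads at a locus did not enter a height. Before scaling, in ChIP reads, it was 5.01 for FOXP1 at E18.5 and 6.13 to 10.1 elsewhere, so that FOXP1 at E18.5 was the list of lowest depth by either measure. A promoter peak in any list was found at 0 of 9 genes of other tissues (Alb, Afp, Apoa1, Myod1, Myog, Ins1, Ins2, Krt14, and Myh6). Of all 21938 protein-coding genes, 7870 also had none. Of 10 cortical projection neuron genes, 9 had one in all 6 lists, beside 51.8% of all protein-coding genes. Both lists were chosen with earlier results known and are no independent check of the tissue label.

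The sequences around 8 summits show the loci to which the results below return. They are bases of the reference genome (GRCm38, plus strand, which is the strand of each gene shown), up to 100 bases on either side of the named summit, and matches on either strand to the letters searched are in capitals. These were the RBPJ core TGGGAA, RBPJ being the factor that carries Notch signaling to DNA, the TCF/LEF core TCAAAG, the forkhead core TGTTTAC, the E-box CAGCTG, the E-box CATATG, and the E-box CAGATG. The last 2 were added after the windows had been read. No 2 of these motifs overlap in the windows. The Hes1 and Hes5 windows are shown for the Notch effectors, the Emx2, Sox2, Pax6, and Emx1 windows for flanking loci that differ between the TRs, and the Nes window for a locus inside the gene. The Hes5 window ends before the first TSS.
Hes1 promoter (TCF7L2, E15.5, chr16:30064045-30064244): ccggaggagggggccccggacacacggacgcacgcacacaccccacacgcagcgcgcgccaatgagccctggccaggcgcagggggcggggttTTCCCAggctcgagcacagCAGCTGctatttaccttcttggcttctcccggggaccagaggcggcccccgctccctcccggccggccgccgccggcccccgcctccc
Hes5 promoter (TCF7L2, E15.5, chr4:154960777-154960922): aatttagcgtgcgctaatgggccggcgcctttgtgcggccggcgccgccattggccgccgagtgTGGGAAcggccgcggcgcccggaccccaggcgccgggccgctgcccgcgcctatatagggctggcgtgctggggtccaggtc
Emx2 at -40.1 kb (TCF7L2, E15.5, chr19:59418162-59418361): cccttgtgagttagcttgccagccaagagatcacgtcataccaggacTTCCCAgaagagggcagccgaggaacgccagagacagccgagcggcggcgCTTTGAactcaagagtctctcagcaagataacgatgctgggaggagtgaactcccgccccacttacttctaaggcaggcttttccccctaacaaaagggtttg
Sox2 at -31.3 kb (ARID1B, E18.5, chr3:34619005-34619204): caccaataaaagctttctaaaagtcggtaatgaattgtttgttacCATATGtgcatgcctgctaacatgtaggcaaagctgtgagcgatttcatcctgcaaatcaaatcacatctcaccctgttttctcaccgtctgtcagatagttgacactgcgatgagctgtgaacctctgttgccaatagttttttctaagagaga
Emx1 at 19.6 kb (ARID1B, E15.5, chr6:85206964-85207163): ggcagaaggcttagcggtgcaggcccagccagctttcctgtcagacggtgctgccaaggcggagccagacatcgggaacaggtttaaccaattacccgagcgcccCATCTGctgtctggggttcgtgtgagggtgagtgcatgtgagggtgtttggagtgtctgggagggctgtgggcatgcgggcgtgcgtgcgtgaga
Emx1 at 31.0 kb (ARID1B, E15.5, chr6:85218382-85218581): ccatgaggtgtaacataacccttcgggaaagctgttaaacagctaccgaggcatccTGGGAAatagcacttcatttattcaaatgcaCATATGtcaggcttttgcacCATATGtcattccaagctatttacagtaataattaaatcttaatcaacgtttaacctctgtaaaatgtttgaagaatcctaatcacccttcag
Pax6 at 62.0 kb (ARID1B, E18.5, chr2:105730824-105731023): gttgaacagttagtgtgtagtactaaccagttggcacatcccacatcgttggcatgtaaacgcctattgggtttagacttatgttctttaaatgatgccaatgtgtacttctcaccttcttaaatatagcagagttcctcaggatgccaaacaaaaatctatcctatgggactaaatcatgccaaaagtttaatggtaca
Nes intron at 3.43 kb (TCF7L2, E15.5, chr3:87974411-87974610): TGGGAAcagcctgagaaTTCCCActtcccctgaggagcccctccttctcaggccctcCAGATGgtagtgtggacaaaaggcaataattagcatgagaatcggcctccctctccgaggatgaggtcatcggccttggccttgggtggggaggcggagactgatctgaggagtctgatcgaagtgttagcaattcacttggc

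The first comparison asked whether the 3 TRs share the promoters of these genes. All 10 genes had a promoter peak of each TR at each stage, and so in all 6 lists. Among the 21938 protein-coding genes, ARID1B had a promoter peak at 58.8% at E15.5 and 57.3% at E18.5. FOXP1 had one at 61.8% and then 54.9%, and TCF7L2 at 57.3% and then 61.2%. Promoter peaks of all 3 TRs were present at 55.4% of the genes at E15.5 and at 52.9% at E18.5, and 51.8% had them in all 6 lists. The count of 10 rested on low peaks in part. In lists cut to their 24000 peaks of lowest p-value, 4 of 10 genes (Sox9, Hes1, Hes5, and Vim) kept promoter peaks in all 6, beside 34.1% of all genes. With only peaks of −log10 p of at least 15, Vim alone did, beside 32.7% of all genes, since FOXP1 at E18.5 had no such promoter peak at the other members.

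In height, the promoters of these genes ranked low for FOXP1. The median height of the highest promoter peak was 7.72 at E15.5, against 10.6 over all genes with a FOXP1 promoter peak, and 5.41 against 8.65 at E18.5. None of the 10 genes (0 of 10) was above the median of all genes at either stage, and at E18.5 they lay between the percentiles 2.45 and 33.4. For ARID1B the medians were 4.64 against 5.17 at E15.5 and 5.05 against 5.61 at E18.5, with 3 and 4 of 10 genes above. For TCF7L2 they were 6.71 against 6.40 and 7.01 against 6.57, with 6 of 10 genes above at both stages. Other gene lists also had FOXP1 medians below those of all genes, as 20 further radial glia genes had 7.28 and 5.19 and 10 cortical projection neuron genes 9.30 and 5.71 at E15.5 and E18.5. These are positions within each list, and no test was made of them.

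In median width, the promoter peaks exceeded those of all bound genes in 5 of the 6 lists. The highest FOXP1 promoter peak at E15.5 had a median width of 2556.5 bp, against 1221 bp over all bound genes, and the TCF7L2 peak at E18.5 of 2981 bp against 1093 bp. FOXP1 at E18.5 was the exception, with 583 bp against 793 bp. In the other 3 lists the medians of the members were 1059, 1466, and 913 bp, against 923, 916.5, and 830.5 bp. Not every member followed the medians, as the peak of Hopx was narrower than the median of all bound genes in all 6 lists.

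**Figure D1:**
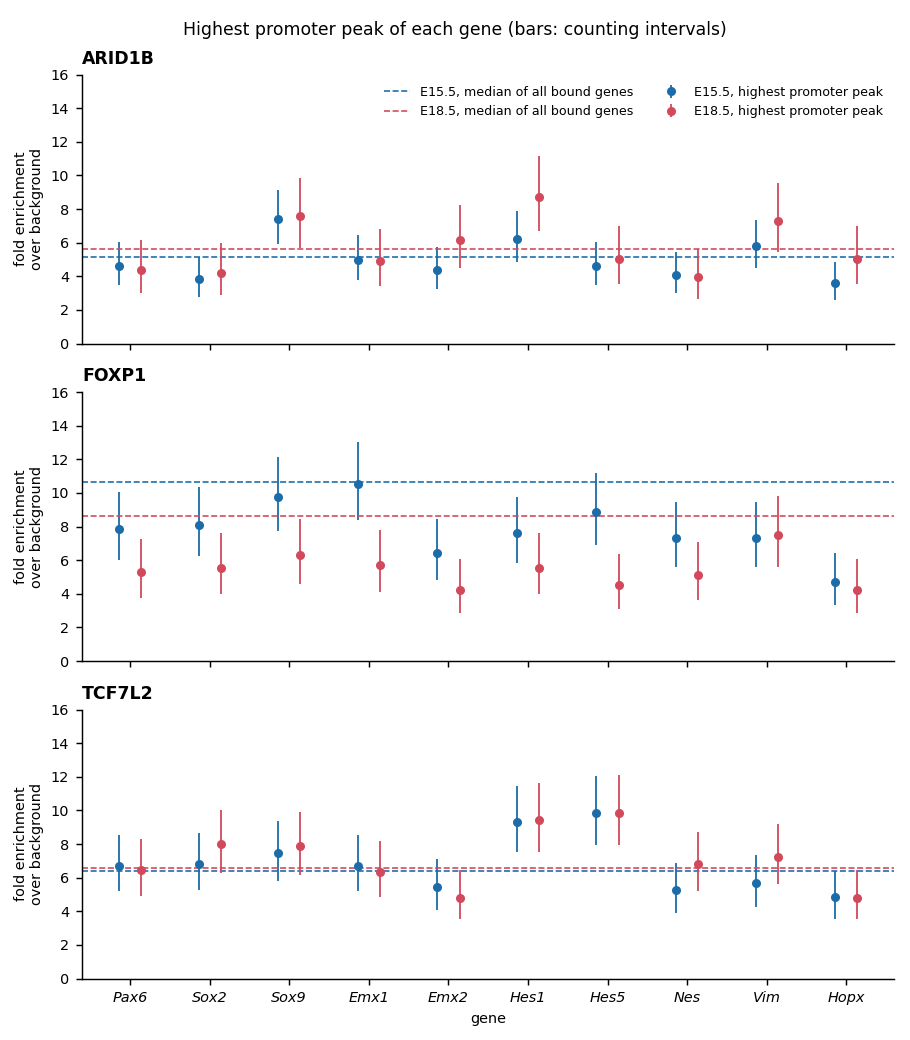
Fold enrichment (vertical axis) of the highest promoter peak of each gene (horizontal axis) for ARID1B, FOXP1, and TCF7L2, with E15.5 in blue and E18.5 in red. Bars are 95% counting intervals and dashed lines the medians over all genes with a promoter peak in that list, and all 10 FOXP1 values lie below the line of their stage.

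Among the patterning genes, Pax6 encodes a paired box factor and spans chr2:105668900-105697364. Its 24 annotated TSSs give promoters that cover 19132 bp. The highest ARID1B promoter peak was 4.64-fold (3.48 to 6.06) at E15.5 and 4.35-fold (2.98 to 6.15) at E18.5. FOXP1 reached 7.85-fold (6.03 to 10.0) and 5.27-fold (3.73 to 7.25). TCF7L2 was at 6.71-fold (5.19 to 8.55) and 6.46-fold (4.93 to 8.32). The FOXP1 and TCF7L2 summits lay within 90 bp of a TSS inside the gene, 6.53 kb from the first one for FOXP1 at E15.5, and the locus around it was the only 1 of the 24 merged loci of Pax6 with a peak in all 6 lists. ARID1B had its highest promoter summits elsewhere, 4323 and 4343 bp from the first TSS.

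Emx1, at chr6:85187438-85204462, encodes a homeodomain factor of dorsal progenitors. Its highest ARID1B promoter peak was 4.99-fold (3.79 to 6.47) at E15.5 and 4.91-fold (3.44 to 6.80) at E18.5. The FOXP1 peak was 10.5-fold (8.38 to 13.0) at E15.5, the highest FOXP1 value of the 10 genes, and 5.71-fold (4.10 to 7.77) at E18.5. TCF7L2 had 6.71-fold (5.19 to 8.55) and 6.35-fold (4.84 to 8.19). All 6 summits lay between 5 and 272 bp downstream of the first TSS, and only the FOXP1 intervals of the 2 stages did not overlap.

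Emx2 (chr19:59458372-59465357) encodes the related factor of the caudal and medial cortex. Its promoter peaks were 4.37-fold (3.25 to 5.76) and 6.17-fold (4.51 to 8.26) for ARID1B at E15.5 and E18.5. They were 6.46-fold (4.82 to 8.47) and 4.24-fold (2.88 to 6.04) for FOXP1. For TCF7L2 they were 5.46-fold (4.10 to 7.13) and 4.82-fold (3.52 to 6.45). The stages overlapped for each TR, and the FOXP1 peak at E18.5 shared the lowest place of the 10 genes with that of Hopx.

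Sox2, a pluripotency and neural stem cell factor encoded by a gene of 1 TSS at chr3:34650405-34652461, had ARID1B promoter peaks of 3.84-fold (2.79 to 5.15) and 4.21-fold (2.86 to 5.98). Its FOXP1 peaks were 8.10-fold (6.25 to 10.3) and 5.56-fold (3.97 to 7.60). Its TCF7L2 peaks were 6.82-fold (5.28 to 8.67) and 7.99-fold (6.28 to 10.0). The 6 summits stood between -579 and -442 bp from the TSS, and no pair of stages had intervals apart.

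Sox9 (chr11:112782224-112787760) encodes a factor that acts in neural stem cells and in the switch to glia. ARID1B was at 7.39-fold (5.90 to 9.15) and 7.57-fold (5.71 to 9.86). FOXP1 was at 9.75-fold (7.71 to 12.2) and 6.30-fold (4.59 to 8.45), and TCF7L2 at 7.44-fold (5.83 to 9.37) and 7.88-fold (6.18 to 9.91). Over the 6 lists Sox9 had the highest mean of the 10 genes, a geometric mean of 7.66-fold, with Hes1 next at 7.65-fold. Both stood near percentile 56.0 of the 11367 genes with promoter peaks in all 6 lists.

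Of the Notch effectors, Hes1 (chr16:30064384-30067796) encodes a basic helix-loop-helix repressor. Its ARID1B peaks were 6.24-fold (4.88 to 7.87) and 8.70-fold (6.69 to 11.1). FOXP1 had 7.59-fold (5.81 to 9.76) and 5.56-fold (3.97 to 7.60), and TCF7L2 9.32-fold (7.50 to 11.5) and 9.41-fold (7.54 to 11.6). The 6 summits lay between -239 and -43 bp from the first TSS. In the window printed above, the summit of TCF7L2 at the merged locus was preceded by an RBPJ core that starts 7 bp before it, with an E-box CAGCTG starting 12 bp after it.

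Hes5 (chr4:154960923-154962371) encodes a repressor of the same family. ARID1B was at 4.64-fold (3.48 to 6.06) and 5.05-fold (3.56 to 6.97), and FOXP1 at 8.86-fold (6.92 to 11.2) and 4.53-fold (3.12 to 6.39). TCF7L2 was at 9.84-fold (7.97 to 12.0) and 9.85-fold (7.93 to 12.1), the highest TCF7L2 values of the 10 genes at both stages. The TCF7L2 peak at E18.5 was 5029 bp wide and had its summit 3358 bp downstream of the first TSS, at the promoter of the neighboring gene Pank4, and a second TCF7L2 peak of the same height lay in the merged locus at -2.52 kb. At E15.5 the summit stood 46 bp upstream of the TSS, with an RBPJ core starting 36 bp before it.

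Of the filament genes, Nes (chr3:87971078-87980451) had the lowest ARID1B promoter peak at E18.5, 3.93-fold (2.64 to 5.65), after 4.10-fold (3.02 to 5.46) at E15.5. FOXP1 was at 7.34-fold (5.59 to 9.47) and 5.12-fold (3.61 to 7.08), and TCF7L2 at 5.25-fold (3.92 to 6.90) and 6.79-fold (5.22 to 8.69). Vim (chr2:13573927-13582826) differed from the other members in FOXP1. It had 7.34-fold (5.59 to 9.47) at E15.5 and 7.47-fold (5.60 to 9.80) at E18.5, the only member whose FOXP1 value was not lower at E18.5. The Vim values of ARID1B were 5.79-fold (4.49 to 7.37) and 7.29-fold (5.47 to 9.55), and those of TCF7L2 5.67-fold (4.28 to 7.37) and 7.23-fold (5.60 to 9.18).

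Hopx (chr5:77086988-77115121, minus strand) had the lowest geometric mean of the 10 genes, 4.50-fold, at percentile 4.54. ARID1B was at 3.57-fold (2.57 to 4.84) and 5.05-fold (3.56 to 6.97), FOXP1 at 4.68-fold (3.32 to 6.43) and 4.24-fold (2.88 to 6.04), and TCF7L2 at 4.83-fold (3.56 to 6.42) and 4.82-fold (3.52 to 6.45). The gene has 3 TSSs. FOXP1 and TCF7L2 had their highest promoter peak at the inner one, with summits 19884 to 19948 bp from the first TSS, while ARID1B had it at the first, with summits at 131 and -176 bp.

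Around the promoters, the loci were dense in peaks. ARID1B had 138 peaks at the 10 loci at E15.5 and 147 at E18.5, FOXP1 had 150 and 37, and TCF7L2 had 122 and 154. Flanking peaks made up the larger part. They numbered 94 and 98 for ARID1B, 103 and 23 for FOXP1, and 74 and 111 for TCF7L2, beside 28 and 30, 32 and 12, and 27 and 31 promoter peaks in the same order. The median number of peaks per 100 kb of gene body and flanks was 12.0 for ARID1B at both stages, against 3.12 and 2.96 over all protein-coding genes. For FOXP1 it was 12.2 and then 3.37, against 3.18 and 1.68. TCF7L2 had 11.2 and then 13.9, against 1.87 and 2.72. All 10 genes were above the median of all genes in 5 lists, and 8 of 10 in the FOXP1 list of E18.5.

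Sox2, Emx1, and Pax6 were the densest loci at E15.5 for ARID1B and FOXP1, and Vim was the sparsest of the 10 in all 3 lists of that stage. At the earlier stage Sox2 had 25 ARID1B, 26 FOXP1, and 18 TCF7L2 peaks, and later 26, 5, and 29, spread along the long noncoding gene Sox2ot. Emx1 had 21, 25, and 23 peaks in this order and later 17, 7, and 24. Pax6 had 23, 23, and 16, then 28, 1, and 19. Vim had 5, 6, and 5, then 7, 2, and 4. In the ARID1B list of E15.5 this put Sox2 at percentile 99.9 and Vim at percentile 65.4 of all genes in peaks per 100 kb.

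**Figure D2:**
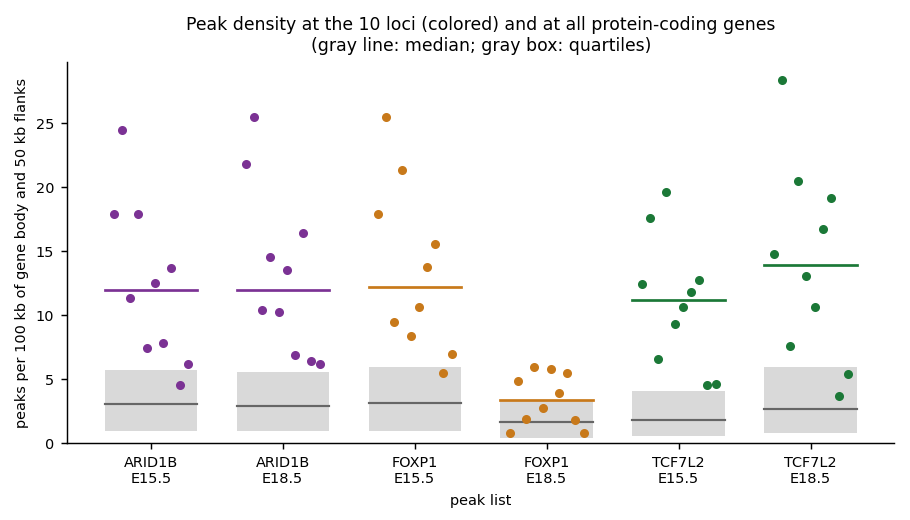
Peaks per 100 kb of gene body and 50 kb flanks (vertical axis) in each of the 6 peak lists (horizontal axis). Points are the 10 genes, colored lines their median, and gray lines and boxes the median and quartiles over all protein-coding genes, and the colored lines of the 5 lists other than FOXP1 at E18.5 lie above 11 peaks per 100 kb.

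**Figure D3:**
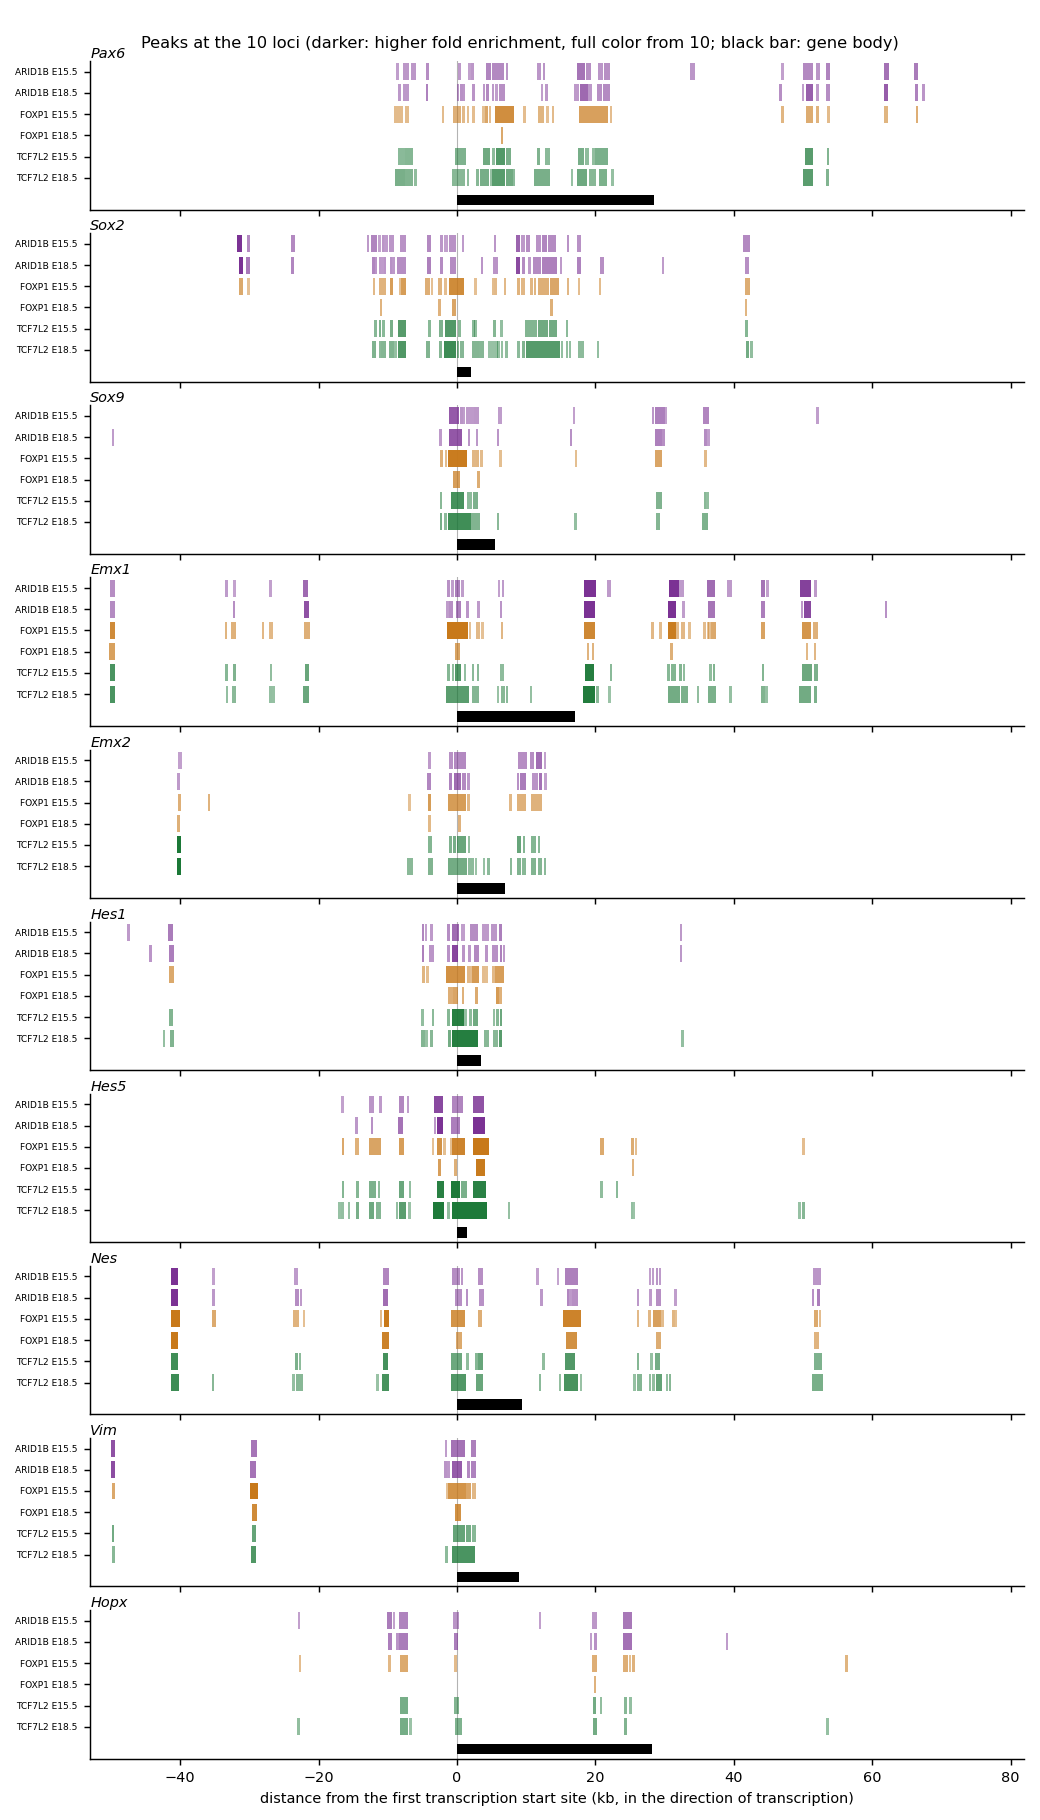
Peaks of the 6 lists (rows) at each of the 10 loci, by distance from the first TSS in kb (horizontal axis), with darker color for higher fold enrichment and the gene body as a black bar. Pax6 shows a single FOXP1 peak at E18.5, and Emx2 its dark TCF7L2 peaks at -40.1 kb.

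Peaks of the 6 lists merged into 178 loci around the 10 genes, 32 at promoters, 14 genic, and 132 flanking. Emx1 had 31 loci, Sox2 27, Pax6 24, Nes 22, Hes5 18, Hopx 16, Sox9 13, Emx2 13, Hes1 11, and Vim 3. A peak in all 6 lists was found at 28 loci (15.7%), beside 17.7% of the merged loci of the genome, and a peak in only 1 list at 67 (37.6%), beside 32.3%. Another 31 loci (17.4%) had a peak in every list but FOXP1 at E18.5, beside 7.06%. With loci merged within a stage, 67 of 152 (44.1%) held all 3 TRs at E15.5, beside 30.1% of the genome, and 30 of 169 (17.8%) at E18.5, beside 22.9%. In the 28 loci with 6 lists, the summits spread over a median of 312 bp, against 228 bp over 16590 such loci of the genome.

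The highest peak of a gene's locus was flanking at 7 of 10 genes for ARID1B at E15.5 and at 6 of 10 at E18.5, beside 52.3% and 51.7% of all genes with an ARID1B promoter peak. For FOXP1 it was flanking at 4 and 6 genes, beside 48.1% and 45.0%, and for TCF7L2 at 3 genes in each stage, beside 45.7% and 47.0%. With 10 genes, these counts are not read as different from the shares of all genes. Of all merged loci, 17 had a peak among the highest 10% of at least 1 list, 9.55% of the 178, beside 13.9% of the merged loci of the genome. Of the 17, 5 were at promoters and 12 flanking. The 3 TRs were ranked at each of these loci by percentile within their own lists. ARID1B ranked highest of the 3 at both stages at 7 of the 17 loci (41.2%), all flanking, beside 46.1% of 13043 such loci genome-wide. TCF7L2 did so at 3 (17.6%), beside 10.2%. These 3 were Emx2 at -40.1 kb, the Hes1 promoter, and Hes5 at -2.52 kb, where the highest ARID1B and FOXP1 peaks were flanking. At this Hes5 locus TCF7L2 led at E18.5 by percentile only, since ARID1B was at 10.4-fold and TCF7L2 at 9.85-fold. FOXP1 ranked highest at both stages at 1 (5.88%), a flanking locus of Nes, beside 10.0% of such loci of the genome. By fold enrichment FOXP1 was also highest at both stages at other flanking loci, Nes at -10.1 and 16.1 kb and Vim at -29.3 kb. Pax6 and Hopx had no locus of this height.

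Emx1 held 4 of the 17 loci. The locus at 19.6 kb (chr6:85205658-85207493), outside any annotated gene, had 11.9-fold and 11.5-fold ARID1B peaks at E15.5 and E18.5, 8.48-fold and 4.09-fold FOXP1 peaks, and 9.43-fold and 9.63-fold TCF7L2 peaks. At 31.0 kb (chr6:85217846-85220761), in intron 13 of the mitochondrial carrier gene Sfxn5, ARID1B was at 11.7-fold and 11.2-fold and FOXP1 at 9.62-fold and 4.53-fold, while TCF7L2 was at 4.00-fold and 4.82-fold. In percentiles of the E15.5 lists, FOXP1 stood at 85.2 and 87.8 at the 2 loci and TCF7L2 at 96.3 and 40.7. In the E18.5 lists FOXP1 stood at 8.41 and 22.3 and TCF7L2 at 97.3 and 72.8. The printed window at 31.0 kb holds the E-box CATATG at 2 places, starting 13 bp before and 7 bp after the ARID1B summit, and the window at 19.6 kb holds the letters CATCTG, which are the E-box CAGATG read on the other strand, starting 5 bp after its summit.

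TCF7L2 stood apart upstream of Emx2. At -40.1 kb (chr19:59417855-59418587), outside any annotated gene, it had peaks of 12.2-fold (percentile 99.5 of its list) at E15.5 and 11.6-fold (99.2) at E18.5. ARID1B at this locus was at 2.86-fold (7.83) and 3.23-fold (9.14), and FOXP1 at 4.56-fold (57.9) and 4.53-fold (22.3). The locus thus had the highest TCF7L2 peaks of the 10 loci and ARID1B peaks below percentile 10 of their lists. The printed window has the letters CTTTGA, the TCF/LEF core read on the other strand, starting 3 bp before the summit.

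ARID1B stood apart upstream of Sox2 and downstream of Pax6. At -31.3 kb of Sox2 (chr3:34618638-34619528), in an intron of Sox2ot, its peaks were 10.1-fold and 10.7-fold, FOXP1 had 5.19-fold at E15.5 and no peak at E18.5, and TCF7L2 had no peak at either stage. At 62.0 kb of Pax6 (chr2:105730546-105731333), in intron 9 of Elp4, ARID1B was at 5.79-fold and 7.15-fold, FOXP1 at 4.05-fold at E15.5 only, and TCF7L2 again had none. Another locus in the same intron, at 51.0 kb of Pax6, had all 3 TRs, with TCF7L2 at 6.40-fold and 6.35-fold, ARID1B at 4.28-fold and 7.01-fold, and FOXP1 at 4.94-fold at E15.5 only. A missing peak says that the place did not pass the threshold of that list.

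Some of the high flanking loci were promoters of other genes. The highest FOXP1 peak near Nes, 19.1-fold at E15.5 and 12.9-fold at E18.5, lay at -40.8 kb at the promoters of Isg20l2 and Rrnad1, and the highest near Vim, 18.4-fold and 8.21-fold, at -29.3 kb at the promoter of Trdmt1. Such promoters of other protein-coding genes accounted for 13 of the 132 flanking loci, 9 of them around Nes. Inside Nes, intron 2 had a locus at 3.43 kb (chr3:87973733-87974944) with TCF7L2 at 5.56-fold and 5.47-fold, FOXP1 at 4.68-fold at E15.5 only, and ARID1B at 3.93-fold and 3.79-fold. Hes1 had a locus at 5.87 kb with all 6 lists, where FOXP1 was at 6.33-fold and 6.59-fold.

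**Figure D4:**
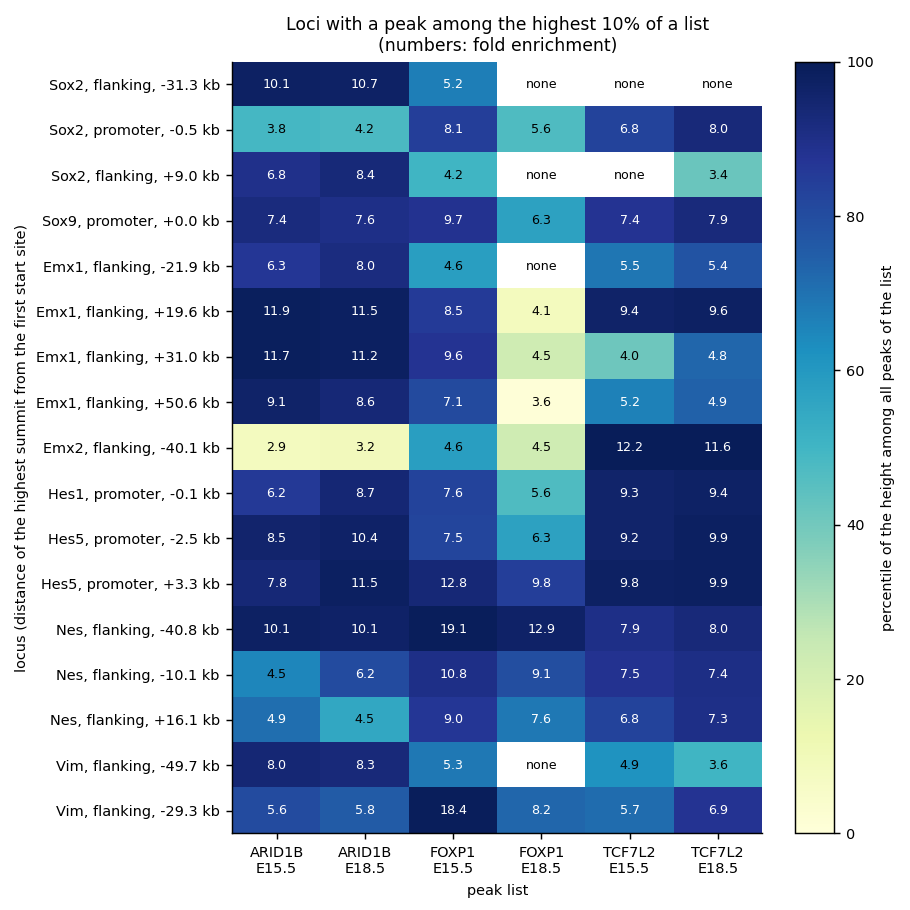
Loci with a peak among the highest 10% of at least 1 list (rows, with the distance of the highest summit from the first TSS) in the 6 lists (columns). Color is the percentile of the height among all peaks of the list and the number is the fold enrichment, and the Emx2 locus at -40.1 kb is dark for TCF7L2 at 12.2-fold and 11.6-fold and pale for ARID1B.

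Between the stages, FOXP1 differed most. It had 150 peaks at the 10 loci at E15.5 and 37 at E18.5, a ratio of 0.247, beside 0.388 for the whole list. At promoters the ratio was 0.375 (32 and 12 peaks), beside 0.708 for promoter peaks of all genes. Pax6, with 15 and 1 of these peaks, set much of this ratio, which was 0.647 over the other 9 genes (17 and 11 peaks). The ratio of all peaks without Pax6 was 0.283 (127 and 36), and at genic and flanking peaks of the 10 genes the ratio was 0.212, beside 0.248. Of the 150 peaks of E15.5, 35 (23.3%) overlapped a FOXP1 peak of E18.5, beside 34.2% of the list. All 37 peaks of E18.5 overlapped one of E15.5, beside 96.3%. The lower depth moved with this difference. In the E18.5 list 95% of peaks were above 3.94-fold, and 77 of the 150 peaks of E15.5 (51.3%) were below it, beside 47.3% of the E15.5 list. In lists of 24000 peaks each, FOXP1 had 45 peaks at the loci at E15.5 and 34 at E18.5.

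ARID1B and TCF7L2 kept most of their peaks. Of the ARID1B peaks of E15.5, 104 of 138 (75.4%) overlapped an ARID1B peak of E18.5, beside 78.2% of the list, and of the TCF7L2 peaks 115 of 122 (94.3%), beside 94.98%. In the other direction, 119 of the 147 ARID1B peaks of E18.5 (81.0%) overlapped an earlier one, beside 85.5%, and 92 of the 154 TCF7L2 peaks (59.7%), beside 56.5%. The ratio of peak numbers was 1.07 for ARID1B at the 10 loci, beside 0.958 for its list, and 1.26 for TCF7L2, beside 1.61. In lists of 24000 peaks each, the order turned, with 35 and then 33 ARID1B peaks and 82 and then 72 TCF7L2 peaks at the loci.

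Heights of the promoter peaks were compared at the 10 genes between the stages, with a change counted where the 2 counting intervals did not overlap. For FOXP1, 2 of 10 genes were lower at E18.5. These were Emx1, from 10.5-fold to 5.71-fold, and Hes5, from 8.86-fold to 4.53-fold, log2 ratios of -0.88 and -0.97. Among all genes with a FOXP1 promoter peak at both stages, 12.7% were lower in this way and 0.0415% higher. The median log2 ratio was -0.56 over the members and -0.35 over all genes, and 9 of 10 members and 90.5% of all genes had a negative ratio. After each list was divided by its median over these genes, 0 of the 10 genes had intervals apart, beside 4.04% of all genes lower and 0.523% higher, and the log2 ratios of Emx1 and Hes5 were then -0.50 and -0.59. They lay at the percentiles 5.47 and 4.41 of all genes.

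For ARID1B and TCF7L2, 0 of 10 genes had intervals apart. The shares of all genes were 0.0325% lower and 0.130% higher for ARID1B, and 0.0320% lower and 0.120% higher for TCF7L2, so that few genes were called for either TR. The TCF7L2 count depended on which peak stood for a promoter. With the peak nearest to a TSS in place of the highest, TCF7L2 was lower at E18.5 at Emx1 and Hes5, beside 1.58% of all genes, and higher at Hes1 and Pax6, beside 0.912%. The highest TCF7L2 peaks of Hes5 had their summits at different places in the 2 stages, as given above. The nearest peaks of E18.5 at Emx1 and Hes5 lay at loci with no TCF7L2 peak at E15.5, so different peaks were compared there. The ARID1B log2 ratios ran from -0.09 for Pax6 to 0.50 for Hopx, with Emx2 at 0.50 and Hes1 at 0.48, and a median of 0.13, beside 0.11 for all genes. The TCF7L2 ratios ran from -0.18 for Emx2 to 0.37 for Nes, with a median of 0.01, beside 0.08.

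**Figure D5:**
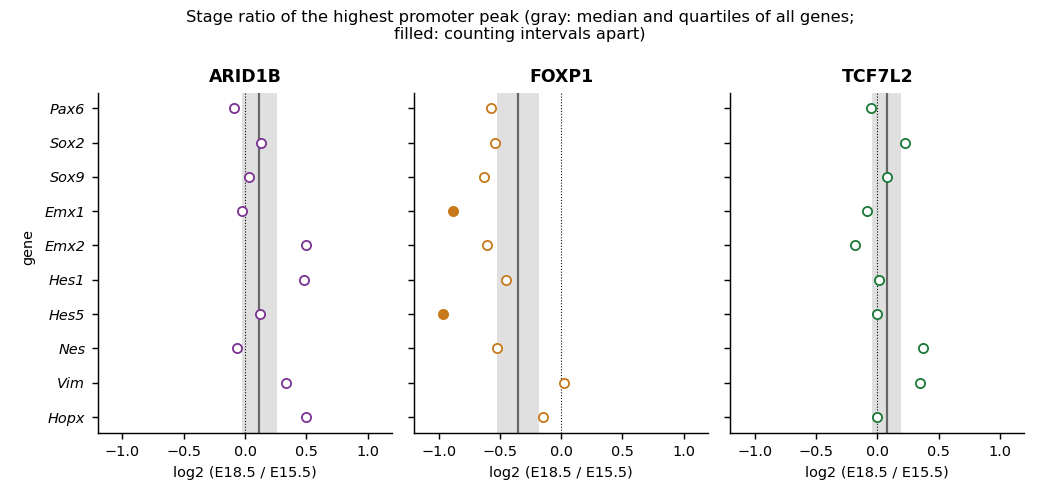
Log2 ratio of the highest promoter peak at E18.5 over E15.5 (horizontal axis) for each gene (vertical axis) and TR. Gray lines and bands are the median and quartiles of all genes, and filled points have counting intervals apart, which holds for Emx1 and Hes5 in FOXP1 at -0.88 and -0.97.

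Other lists of genes were set beside the share of 51.8% of all genes with promoter peaks in all 6 lists, with no test between them. Of 20 further radial glia genes, 13 had promoter peaks in all 6 lists, and Fam107a and Pdgfd had none in any. Among those with peaks in all 6 lists, to which the means here are limited, the highest mean height was at Glul, the glutamine synthetase gene, with a geometric mean of 10.1-fold, and the lowest was at Aldoc, a glycolytic enzyme gene of astrocytes, with 4.18-fold. Of 20 Notch pathway genes, 17 had promoter peaks in all 6 lists, from 4.60-fold at the ligand gene Jag2 to 13.4-fold at Hes6. Among intermediate progenitor genes the count was 4 of 6, and of these 4 Btg2, an antiproliferative gene, was highest at 9.30-fold and the proneural gene Neurog2 lowest at 6.33-fold. Of 10 projection neuron genes, 9 were bound in all 6 lists, from 5.55-fold at Rorb to 9.06-fold at Neurod2. In peaks per 100 kb, the median of the projection neuron genes was 13.0 for ARID1B at E15.5, beside 12.0 at the 10 genes, but 7.82 beside 11.2 for TCF7L2 at that stage. At E18.5 it was 13.5 beside 12.0 for ARID1B, 2.32 beside 3.37 for FOXP1, and 9.40 beside 13.9 for TCF7L2, and for FOXP1 at E15.5 it was 11.2 beside 12.2. For ARID1B at E15.5 the intermediate progenitor genes had 10.8, the Notch pathway genes 5.64, the 20 further radial glia genes 5.76, and genes of other tissues 1.82. For FOXP1 at E18.5 the intermediate progenitor genes, at 5.83, and the Notch pathway genes, at 3.66, were above the 3.37 of the 10 genes. Genes of other tissues, from 1.21 to 3.64 over the 6 lists, were above the median of all genes for FOXP1 at E15.5 and for TCF7L2 at both stages.

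In sequence, the promoters were rich in CpG. The 2000 bp centered on the first TSS had a median observed-to-expected CpG ratio of 0.695, against 0.474 over all protein-coding genes and 0.636 over genes with promoter peaks in all 6 lists, with Hes1 highest at 0.839 and Hopx lowest at 0.452. In windows of 200 bp around the summits, the RBPJ core was present at 20.7% to 27.0% of the peaks of the 10 loci over the 6 lists, beside 16.2% to 18.9% of all peaks. The TCF/LEF core was at 13 of 122 TCF7L2 peaks at E15.5 (10.7%), beside 3210 of all 32989 (9.73%), and later at 20 of 154 (13.0%), beside 5835 of all 53169. The forkhead core was at 3 of 150 FOXP1 peaks at E15.5 (2.00%, beside 2.89%) and at 0 of 37 at E18.5 (beside 2.28%). The E-box CAGCTG was at 8.11% to 18.4% of the peaks of the 10 loci, beside 13.1% to 19.6% of all peaks, and lower at the loci in each of the 6 lists. The E-box CATATG was at 3.62% and 4.08% of ARID1B peaks at E15.5 and later, beside 9.01% and 8.77% of all ARID1B peaks, at 4.00% and 2.70% of FOXP1 peaks, beside 6.22% and 3.51%, and at 1.64% and 3.90% of TCF7L2 peaks, beside 3.40% and 3.87%. The E-box CAGATG was at 15.9% and 19.0% of ARID1B peaks, beside 28.9% and 28.3%, and at 16.7% and 13.5% of FOXP1 peaks, beside 22.2% and 14.4%. For TCF7L2 it was at 21.3% and then 17.5%, beside 17.3% and 19.1%. A match is a description of the letters and not a bound site.

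In the RefSeq promoter table (GRCm38.p6, 300 bases around a gene start), 8 of the 10 genes had an entry, all but Sox9 and Hes1. The RBPJ core was in 2 of these 8, 2 times in Hes5 and 1 time in Emx2, which is near the 25.6% of all 32851 promoters that held it. At least 2 copies were in 3.79% of all promoters.

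By height over the 6 lists, the gene nearest to each member was looked for among 11366 other genes, as the smallest Euclidean distance of the log2 fold enrichments. Pax6 was nearest to Rai14 (distance 0.16), Sox2 to Gabrb2 (0.17), Nes to Id3 (0.17), Hopx to Il10rb (0.19), and Emx2 to Tcf15 (0.20). Emx1 was nearest to Celsr2 (0.23), Sox9 to Ppdpf (0.24), Vim to Zfp651 (0.27), Hes1 to Pipox (0.33), and Hes5 to Celsr1 (0.34). No member had another member as its nearest gene.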

How the data were processed

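The 6 deposited lists hold ChIP-seq peaks of ARID1B, FOXP1, and TCF7L2, 1 for each TR and stage (E15.5, E18.5), in wild-type mouse cortex. As the study's methods and the submitters' processing notes state, reads were aligned by the authors to GRCm38 (mm10) with BWA 0.7.15 and filtered with SAMtools, and narrow peaks were called with MACS2 2.2.7 against input, for the final peaks on merged replicates, with no local background and reads extended by 200 bp. The deposited lists give a ratio (fold enrichment over the background), −log10 of the p-value and of the q-value, and a score, as the authors' caller wrote them. The score was not used. For duplicate reads, the treatment is not given in the sources used.

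The background and the reads at each summit were recovered from the pairs of fold enrichment and p-value, of which 100% could be fitted in each list, and 95% exact Poisson intervals were computed from the reads. They cover counting error only. This background corresponds to 26.3 M reads in the smaller library for FOXP1 at E18.5 and to 57.3 to 80.7 M in the other lists, with the mouse genome size of MACS2. Genes and TSSs came from GENCODE vM21 and were joined on GRCm38. Only peaks on the 21 main chromosomes were used. All overlaps needed 1 base. The code was tested on simulated peaks.

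The members and gene lists were chosen with earlier results of these data known. All 10 members are named. From the list of genes of other tissues, 1 gene is not reported here and was left out of its count and median. Of the other lists, the genes of highest and lowest mean log2 fold enrichment over 6 lists and those with no promoter peak are named. Flanks of 25 and 100 kb, a threshold of 15 on −log10 p, lists of 24000 peaks, overlap by the summit, promoters reaching 500 bp downstream, coding TSSs, rescaled lists, and the peak nearest to a TSS were tried as alternatives. Python 3.11.15, numpy 2.4.6, pandas 2.3.3, scipy 1.17.1, and matplotlib 3.10.9 were used.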

Additional observations from a re-analysis of the deposited data

How the results depend on the processing

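No paired analysis was possible because there was 1 list for each TR and stage, taken to be the merged one, and for the same reason no replicate could be left out. Of 103 alternatives over 23 counts, 76 stayed within 1.5 times the main count and 27 did not, most of them because fewer peaks were kept. With only peaks of −log10 p of at least 15, 1 member in place of 10 had a FOXP1 promoter peak at E18.5, beside 41.7% of all genes. The same count held for members with all 3 TRs at E18.5, beside 35% of all genes, and with all 6 lists, beside 32.7%. Peaks at the loci were then 41 and 38 for ARID1B in the 2 stages, 50 and 7 for FOXP1, and 31 and 40 for TCF7L2, loci with all 3 TRs were 19 and 5, and the 0 members with a lower FOXP1 promoter peak at E18.5 follow from the threshold, which left a value at both stages to Vim alone.

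In lists of 24000 peaks, 6 members had an ARID1B promoter peak at each stage (beside 39.4% and 39.0% of all genes), 6 had all 3 TRs at each (beside 38.6% and 38.0%), and 4 had all 6 lists (beside 34.1%). At E15.5 the loci then held 35 ARID1B, 45 FOXP1, and 82 TCF7L2 peaks, and later 33, 34, and 72, and loci with all 3 TRs were 23 and 12. For ARID1B and TCF7L2 the later count was then the lower, while in the full lists it was the higher. Flanks of 100 kb gave 56 FOXP1 peaks at E18.5 in place of 37. With each list divided by its median, 0 members had a lower FOXP1 promoter peak at E18.5. With the promoter peak nearest to a TSS in place of the highest, TCF7L2 was lower at E18.5 at 2 members (Emx1 and Hes5) and higher at 2 (Hes1 and Pax6), beside 1.58% and 0.912% of all genes, and in place of 0 and 0. At E18.5 the nearest TCF7L2 peak was 3.07-fold at -1.14 kb for Hes5 and 2.63-fold at 5.94 kb for Emx1. These loci had no TCF7L2 peak at E15.5, so the 2 lower calls compare different peaks. For the calls at Hes1 and Pax6 the cause was not tested. With overlap counted by the summit, 7 members in place of 10 had all 6 lists, beside 31.7% of all genes. The depth of FOXP1 at E18.5 limits what the stages can show for that TR.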
